A study of Cricetiscus sungorus with 12 samples.

Results

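The 10 genes described here code for the receptors of insulin and insulin-like growth factor, their substrates, the FoxO transcription factors, and 3 genes known as FoxO targets in other tissues. They were chosen by mouse Entrez GeneID, with earlier results of these data known, and all 10 were present among the 17191 GeneIDs quantified. In order of role they are the receptors Insr (GeneID 16337) and Igf1r (16001), the receptor substrates Irs1 (16367) and Irs2 (384783), the transcription factors Foxo1 (56458), Foxo3 (56484) and Foxo4 (54601), the cyclin Ccng2 (12452) and the sestrins Sesn1 (140742) and Sesn3 (75747). All 10 passed the filter on low counts in each comparison.

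Hypothalamic mRNA came from 12 adult Djungarian hamsters, a small rodent that lowers its metabolic rate and body temperature for some hours of the day, spontaneously, once it is acclimated to short days. LP-NT hamsters were held in 16 h light and 8 h dark and were normothermic. SP-NT hamsters were held in 8 h light and 16 h dark and were normothermic on the day of sampling. SP-HT hamsters shared that short photoperiod and were hypothermic, in spontaneous daily torpor. Each group held 4 hamsters, each a separate animal, sampled at ZT 4 (4 h after lights on). Each normothermic group had 2 hamsters of each sex, and the torpid group had 3 males and 1 female. No genetic modification or drug was given by the labels. In the paper, the hamsters of both short photoperiod groups had surgery to implant a temperature transmitter, and those of LP-NT did not. In the contrasts with LP-NT, implantation cannot be told apart from the other group differences. Directions below are those of the animals as labelled. By the labels, DESeq2 with length factors called 303 genes higher and 456 lower in SP-HT than in SP-NT. The paper reports the same counts with rise and fall exchanged, and which direction holds was not settled here. Between SP-NT and LP-NT the same fit called 32 genes, 15 higher and 17 lower in SP-NT. The paper reports that comparison with the same counts and directions. What disagrees is the direction of the torpor contrast, and why was not tested. If the labels stand and the direction printed in the paper is the reversed one, the values below hold as given. If the labels of SP-HT and SP-NT were exchanged, every rise and fall between them below would turn. The contrasts of SP-NT and of SP-HT with LP-NT would then change places. The photoperiod comparison would hold 623 calls by that DESeq2 fit, in place of 32.

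Insulin and insulin-like growth factor 1 bind receptor tyrosine kinases, which phosphorylate the IRS proteins and through them activate PI3-kinase and the kinase AKT. AKT phosphorylates the FoxO factors and keeps them out of the nucleus, so that FoxO target genes are transcribed mainly when the pathway is quiet. In the hypothalamus insulin acts on neurons that govern food intake and glucose production, and FoxO1 in these neurons favours the expression of the orexigenic peptide AgRP. The pathway is switched by phosphorylation, whereas the values here are mRNA levels. No phosphorylation, protein or nuclear location was measured.

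The expected counts per hamster summed to between 20204979 and 24186918, with group medians of 22089202 (LP-NT), 23941442 (SP-NT) and 21832555 (SP-HT). Any pair of replicates differed by more than counting noise, since chi-square over all genes divided by its degrees of freedom was at least 7.01. LP-NT replicate 01 stood apart over all genes, at 27.8 to 39.2 from the other LP-NT hamsters, which were 9.30 to 14.2 from each other. One library stood apart from its label. The counts of 2 records that separate the sexes were 979 to 1699 and 342 to 462 in 6 males, and 2 to 5 and 0 in the 5 females. In SP-HT the 2 records matched the labelled sex of every hamster. They were both at 0 in the remaining hamster with a male label, replicate 19 of SP-NT. Values without that hamster are given beside the Ccng2, Igf1r, Irs1, Sesn1 and Sesn3 results, and for the other genes with the summary of the set. The sampled tissue was not checked against cell type markers here. In a whole hypothalamus, fewer cells of a type and less mRNA per cell cannot be told apart.

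Ccng2 mRNA was lower in SP-HT than in both normothermic groups, at 49.5% of its SP-NT level (95% CI 41.9% to 58.3%) by the labels. If the labels of SP-HT and SP-NT were exchanged, which was not tested, the same value would read 2.02-fold higher (95% CI 1.71 to 2.38). The contrasts of Ccng2 with LP-NT would then change places, and the called one would be that between photoperiods. Ccng2 codes for cyclin G2, an atypical cyclin that restrains cell cycle progression and is a known FoxO target. The CPM of the receptor, substrate, FoxO and Sesn3 mRNAs overlapped between the groups in every comparison. Sesn1 counts were slightly lower in SP-HT, by a difference that did not pass the adjusted threshold. With the length of the Sesn1 record taken into account, as given below, that difference was smaller. Of the 10 genes, 0 were called between the photoperiods, 1 between SP-HT and SP-NT and 1 between SP-HT and LP-NT, by the quasi-likelihood test of edgeR at a threshold of 0.05, adjusted over all genes after Benjamini and Hochberg. The same rule called 0.0370% of the 16199 genes tested between the photoperiods, 2.40% of 16195 between SP-HT and SP-NT, and 1.37% of 16157 between SP-HT and LP-NT. In the last 2 comparisons 1.90% and 1.02% of all genes were called lower, the direction of Ccng2. DESeq2 called the same numbers of the 10 genes, and 0.204%, 6.28% and 4.37% of all genes. The genes were chosen with these contrasts known, so the values are a description and nothing is read from these counts.

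**Figure D1:**
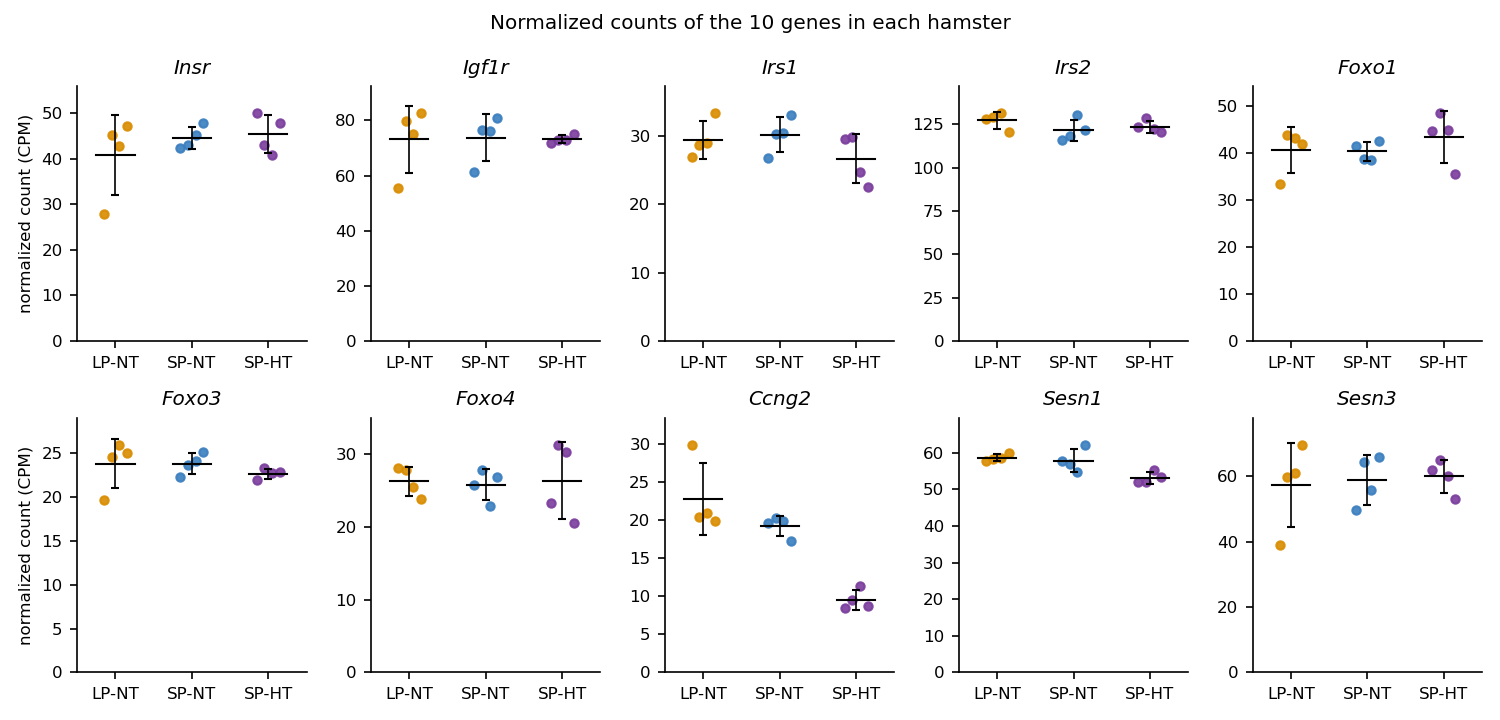
Normalized counts of the 10 genes, in CPM (counts scaled to library size) on an axis from 0, with 1 point per hamster, the mean as a line and 1 SD as a bar, in the 3 groups (n = 4 each). Ccng2 lies between 8.42 and 11.4 CPM in SP-HT and above 17 CPM in every other hamster, while for the other 9 genes SP-HT overlaps SP-NT. The lowest LP-NT point for Insr, Igf1r, Foxo1, Foxo3 and Sesn3, and the highest for Ccng2, belong to the same hamster, replicate 01.

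Levels across hamsters are given in CPM, which are counts scaled by the total of a library and its TMM factor. Ccng2 stood at 29.9, 20.5, 20.9 and 19.9 CPM in LP-NT (replicates 01, 02, 03 and 05) and at 19.6, 20.3, 19.8 and 17.3 CPM in SP-NT (replicates 19, 36, 37 and 38). In SP-HT it stood at 8.42, 9.52, 11.4 and 8.70 CPM (replicates 02, 10, 26 and 33). Each of the 4 torpid hamsters was below each of the 8 normothermic ones. The means were 22.8 ± 4.75, 19.2 ± 1.34 and 9.51 ± 1.34 CPM (SD, n = 4 each). These CPM rest on 177 to 242 counts per hamster in SP-HT and 426 to 669 in the normothermic groups. The SP-HT female had 8.42 CPM and the 3 males 8.70 to 11.4 CPM, so both sexes were below the normothermic range.

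In the torpor comparison (SP: HT vs NT) Ccng2 had a log2(FC) of -1.02 (SE 0.108, edgeR adjusted p = 0.00239). It ranked 10th of 16195 genes by p and 25th by size of fall among the 307 genes called lower, whose median log2(FC) was -0.50, where lower is by the labels and would turn with the sign of the contrast. Without SP-NT replicate 19 the log2(FC) was -1.002 (edgeR adjusted p = 0.0133). With the labelled sex as a covariate, the doubtful label of replicate 19 included, it was -1.02 (edgeR adjusted p = 0.00684). The CPM of SP-HT lay wholly below SP-NT for 7.47% of all genes tested and wholly above for 4.70%.

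Against LP-NT the log2(FC) of Ccng2 in SP-HT was -1.26 (SE 0.153, edgeR adjusted p = 0.00792). This contrast shares the SP-HT hamsters with the torpor comparison, so it is given beside it and not as separate evidence. The level was 41.8% of that in LP-NT. Between the normothermic groups (NT: SP vs LP) the log2(FC) was -0.26 (95% CI -0.56 to 0.04, edgeR adjusted p = 0.913). Without LP-NT replicate 01, the hamster at 29.9 CPM, it was -0.09. That hamster also sets the larger value against LP-NT, which was -1.10 without it (edgeR adjusted p = 0.00327).

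The length of the Ccng2 record differed among the torpid hamsters. RSEM gives each GeneID an effective length per sample, the mean of its transcripts weighted by their abundance. For Ccng2 it was 2140 and 2211 bases in SP-HT replicates 10 and 26, and 2480 and 2535 bases in replicates 02 and 33. SP-NT held between 2408 and 2477 bases. The shorter values belong to the torpid hamsters with the 2 higher Ccng2 counts. With the effective lengths as an offset the torpor log2(FC) was -0.95 (edgeR adjusted p = 0.0176). TPM, which is scaled for length, was 9.17 to 13.6 in SP-HT, 19.7 to 23.1 in SP-NT and 22.2 to 31.5 in LP-NT, and the torpid hamsters remained below all others on that scale.

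**Figure D2:**
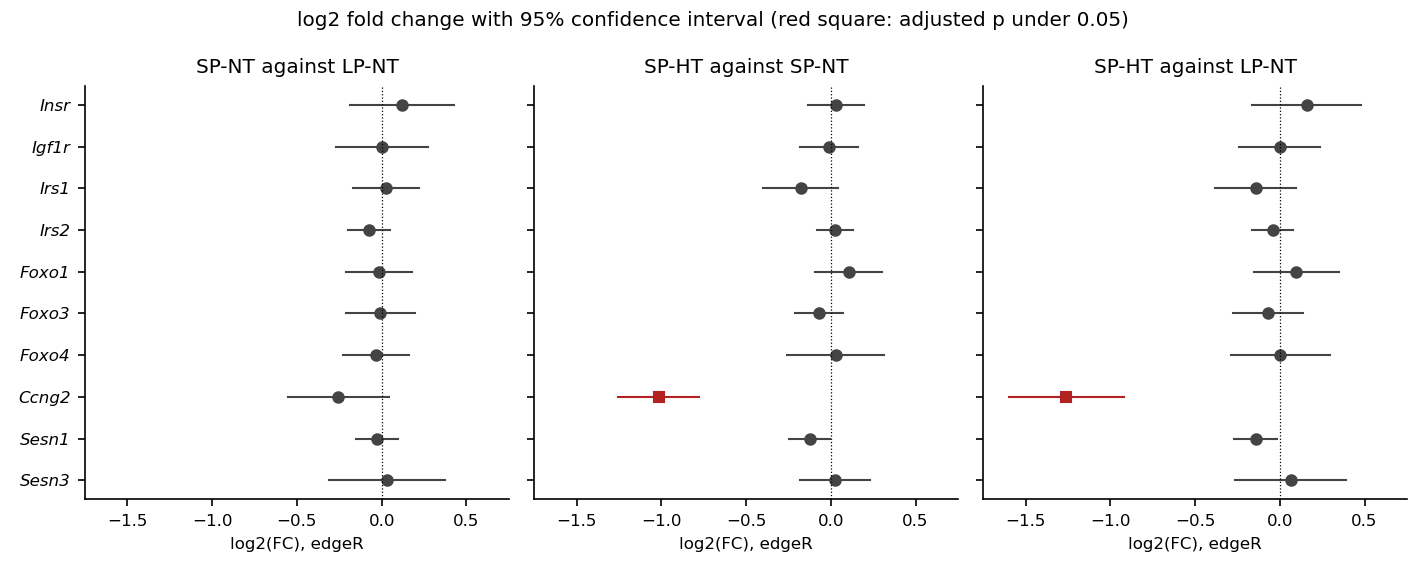
log2(FC) of each gene from edgeR with its 95% confidence interval, for the photoperiod comparison (left), the torpor comparison (middle) and SP-HT with LP-NT (right), 4 hamsters a group. Red squares mark an adjusted p under 0.05. Ccng2 is the sole red square, at -1.02 against SP-NT and -1.26 against LP-NT, and the intervals of the other genes lie between -0.40 and 0.48 over the 3 comparisons.

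The receptor mRNAs of torpid and normothermic hamsters overlapped. Insr codes for the insulin receptor. It stood at 50.0, 43.0, 40.8 and 47.9 CPM in SP-HT (replicates 02, 10, 26 and 33), and at 42.3, 42.9, 45.1 and 47.8 CPM in SP-NT (replicates 19, 36, 37 and 38). The groups overlapped throughout, with a log2(FC) of 0.03 (95% CI -0.14 to 0.20, edgeR adjusted p = 0.877). In LP-NT 3 hamsters lay between 42.8 and 47.1 CPM and replicate 01 at 27.9 CPM. The photoperiod log2(FC) of 0.12 (95% CI -0.19 to 0.43) became -0.02 without that hamster. Igf1r, the receptor of insulin-like growth factor 1, stood at 71.8, 72.9, 72.8 and 75.3 CPM in SP-HT, the narrowest spread of that record in any group (SD 1.99% of the mean). SP-NT held 61.3 to 80.9 CPM and LP-NT 55.6 to 82.6 CPM, so both enclosed SP-HT. Its log2(FC) was -0.01 (95% CI -0.18 to 0.16) in the torpor comparison and 0.00 (95% CI -0.27 to 0.27) between photoperiods. Without SP-NT replicate 19 these values were -0.085 and 0.079. The Igf1r record joins 195 transcripts, and what part of its counts comes from the Igf1r transcript itself was not tested.

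The substrates Irs1 and Irs2 dock to the active receptors and recruit PI3-kinase. Irs1 had the lowest point of any hamster in SP-HT, with 29.6, 29.8, 24.8 and 22.6 CPM (replicates 02, 10, 26 and 33) against 26.9, 30.3, 30.5 and 33.1 CPM in SP-NT. The first pair of torpid hamsters lay inside the SP-NT range and the other pair below it. The log2(FC) was -0.18 (95% CI -0.40 to 0.04, edgeR adjusted p = 0.381). Leaving out each hamster moved it between -0.23 (without SP-HT replicate 10) and -0.10 (without SP-HT replicate 33), and without SP-NT replicate 19 it was -0.22. Irs1 stood at 26.9 to 33.3 CPM in LP-NT. Irs2, itself a known FoxO target in liver, held 120.6 to 128.6 CPM in SP-HT, 116.0 to 130.3 in SP-NT and 120.4 to 131.4 in LP-NT. Its intervals were the tightest of the 10 genes, with a torpor log2(FC) of 0.02 (95% CI -0.08 to 0.13) and a photoperiod log2(FC) of -0.08 (95% CI -0.20 to 0.05). On the TPM scale Irs2 was 5.42 ± 0.64 times Irs1 in LP-NT, 5.05 ± 0.39 times in SP-NT and 5.82 ± 0.72 times in SP-HT (SD, n = 4 each), and these ratios overlapped between the groups.

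The FoxO factors are the transcription factors at the end of the pathway. Foxo1 stood at 44.7, 48.5, 45.1 and 35.6 CPM in SP-HT (replicates 02, 10, 26 and 33) and at 41.5, 38.9, 38.7 and 42.7 CPM in SP-NT. Of the torpid hamsters 3 lay above the SP-NT range and 1 below it, and the log2(FC) was 0.11 (95% CI -0.09 to 0.30, edgeR adjusted p = 0.569). Without SP-HT replicate 33, the lowest of them, it was 0.19 (unadjusted p = 0.0144, edgeR adjusted p = 0.145), and without replicate 10, the highest, 0.049. Foxo3 varied little within SP-HT, at 21.9 to 23.3 CPM, against 22.3 to 25.2 CPM in SP-NT and 19.7 to 26.0 CPM in LP-NT. Its torpor log2(FC) was -0.07 (95% CI -0.21 to 0.07). Foxo4 was the most variable FoxO mRNA in torpor, with 23.2, 31.3, 30.3 and 20.5 CPM in SP-HT (replicates 02, 10, 26 and 33). The 2 higher values lay above the SP-NT range of 22.9 to 27.8 CPM and above the LP-NT maximum of 28.1 CPM. The lowest torpid hamster lay below both groups, and the log2(FC) was 0.03 (95% CI -0.26 to 0.31). Its effective length was 3133 to 3162 bases in SP-HT and 3030 to 3073 bases in LP-NT, without overlap, a position above LP-NT that 2.19% of all genes held.

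Summed over the 3 factors, FoxO mRNA amounted to 70.5 ± 6.38 TPM (LP-NT), 70.6 ± 3.02 TPM (SP-NT) and 68.6 ± 6.46 TPM (SP-HT, SD, n = 4 each). Foxo3 made up 36.4% of the sum (LP-NT), 37.0% (SP-NT) and 35.4% (SP-HT). Foxo1 made up 29.9%, 30.2% and 31.9% in the same order. The share of each factor overlapped between the groups.

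The sestrins are stress-inducible proteins that restrain the growth kinase complex mTORC1, and Sesn1 and Sesn3 are both described as FoxO targets. Sesn1 stood at 51.9, 52.1, 55.2 and 53.3 CPM in SP-HT (replicates 02, 10, 26 and 33), and at 57.9, 56.8, 54.7 and 62.2 CPM in SP-NT (replicates 19, 36, 37 and 38). LP-NT held 57.7, 58.4, 58.6 and 60.1 CPM. SP-HT overlapped SP-NT by 1 hamster on each side and did not overlap LP-NT. Ccng2 and Sesn1 were the 2 of 10 genes whose CPM in SP-HT lay wholly below LP-NT, which holds for 6.54% of all genes tested, with 4.06% wholly above. The torpor log2(FC) of Sesn1 was -0.12 (unadjusted p = 0.0473, edgeR adjusted p = 0.267), and that against LP-NT was -0.14 (unadjusted p = 0.0317, edgeR adjusted p = 0.271). Neither passed the threshold. Without SP-NT replicate 19 the torpor value was -0.12 (edgeR adjusted p = 0.382).

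The effective length of Sesn1 was also lower in torpor. It was 3011, 2999, 3119 and 3173 bases in SP-HT (replicates 02, 10, 26 and 33), against 3190 to 3399 bases in SP-NT and 3201 to 3405 bases in LP-NT. SP-HT overlapped neither group. Among all genes tested, the effective length lay wholly below SP-NT for 4.98% and wholly below LP-NT for 4.57%. With the effective lengths as an offset the log2(FC) of Sesn1 was -0.02 against SP-NT (edgeR adjusted p = 0.901) and -0.06 against LP-NT (edgeR adjusted p = 0.762). In TPM the torpid hamsters held 46.4 to 46.6 and SP-NT 46.2 to 51.3, with overlap, while LP-NT held 47.8 to 50.1, above every torpid hamster. The Sesn1 record joins 20 transcripts, and which of them differed in abundance was not analysed here.

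Sesn3 showed no such difference in counts or length. It stood at 53.0 to 64.8 CPM in SP-HT, 49.6 to 65.9 CPM in SP-NT and 39.1 to 69.6 CPM in LP-NT, with a torpor log2(FC) of 0.02 (95% CI -0.18 to 0.23). LP-NT replicate 01 was the lowest of all 12 hamsters at 39.1 CPM, and the other 3 of that group lay between 59.8 and 69.6 CPM. The photoperiod log2(FC) of 0.03 became -0.11 without it. Without SP-NT replicate 19 the torpor value was -0.045 and the photoperiod value 0.10. In TPM, Sesn3 made up 64.9% ± 6.12 (LP-NT), 66.5% ± 3.33 (SP-NT) and 67.2% ± 1.62 (SP-HT) of the sum of the 2 sestrins (SD, n = 4 each).

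Across the set, the differences other than that of Ccng2 were small. The median log2(FC) of the 10 genes was -0.01 between photoperiods, 0.01 in the torpor comparison and -0.02 between SP-HT and LP-NT, beside -0.00 for all genes in each. The median absolute log2(FC) was 0.030, 0.049 and 0.084, beside 0.091, 0.116 and 0.128 for all genes tested. The values for all genes include genes of low count. With the count filter of edgeR (filterByExpr) they were 0.081, 0.107 and 0.118. The 9 other genes had log2(FC) between -0.18 and 0.11 in the torpor comparison, with intervals between -0.40 and 0.31 and edgeR adjusted p between 0.267 and 0.964. Between photoperiods their log2(FC) lay between -0.08 and 0.12, with intervals between -0.31 and 0.43 and edgeR adjusted p between 0.913 and 0.998. Without SP-NT replicate 19 the torpor log2(FC) of Insr, Irs2, Foxo1, Foxo3 and Foxo4 was 0.0094, 0.0067, 0.12, -0.095 and 0.032. Between photoperiods the 10 genes then lay between -0.26 for Ccng2 and 0.14 for Insr. The 0 calls between photoperiods were also 0 with DESeq2, and 0 of the 10 genes had an unadjusted p under 0.05 there. Neither the CPM nor the effective lengths of the photoperiod groups stood apart for any of the 10 genes (0 of 10 each), beside 3.48% and 2.47% of all genes.

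LP-NT replicate 01, which stood apart over all genes, also did so among these 10. It was the lowest of its group for 7 of the 10 genes and the highest for 2, Ccng2 and Foxo4. Relative to the mean of the other 3 LP-NT hamsters it held 61.9% of Insr, 61.6% of Sesn3, 70.2% of Igf1r, 77.6% of Foxo1 and 78.2% of Foxo3, and 146% of Ccng2. Without it the SE of the photoperiod log2(FC) of Insr was 0.063 in place of 0.138. It has no part in the comparison of SP-HT with SP-NT.

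**Figure D3:**
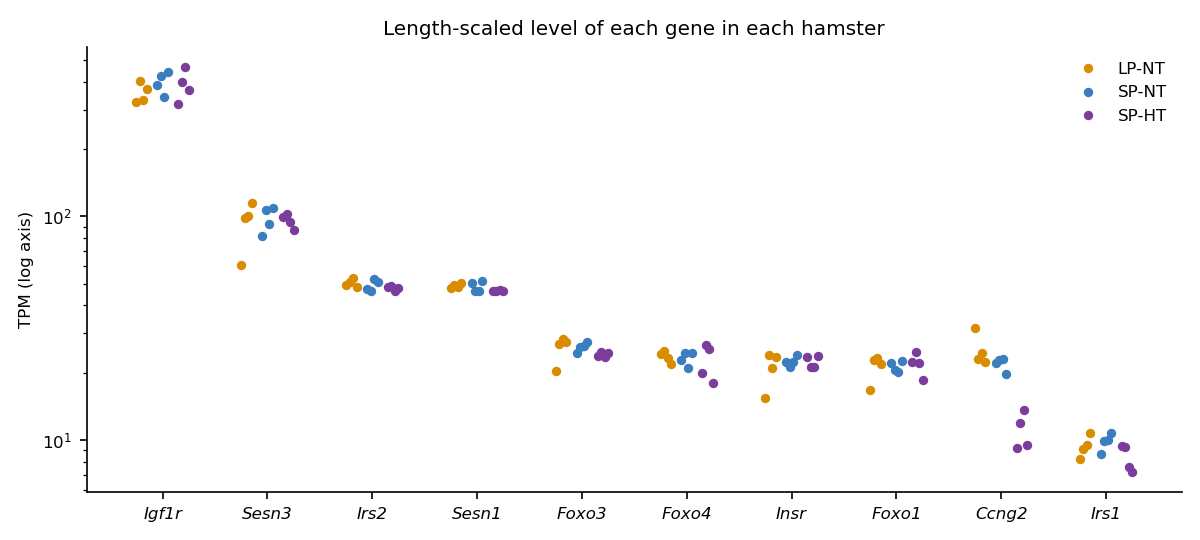
Length-scaled level in TPM, on a log axis, of each gene in each of the 12 hamsters, in order of the mean over all. Igf1r (mean 381 TPM), Sesn3 (95.6) and the pair Irs2 and Sesn1 (49.2 and 48.0) stand above the rest, and Ccng2 is the gene for which all 4 SP-HT points lie below every point of both other groups.

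Levels of different genes were compared in TPM alone. Over the 12 hamsters the means were 381 for Igf1r, 95.6 for Sesn3, 49.2 for Irs2, 48.0 for Sesn1, 25.3 for Foxo3, 23.1 for Foxo4, 21.95 for Insr, 21.5 for Foxo1, 19.4 for Ccng2 and 9.18 for Irs1. Among neighbours in this order, the ranges did not overlap between Igf1r and Sesn3, between Sesn3 and Irs2, and between Sesn1 and Foxo3. Irs2 exceeded Sesn1 in 8 of 12 hamsters, Foxo3 exceeded Foxo4 in 9, Foxo4 exceeded Insr in 8, Insr exceeded Foxo1 in 8 and Foxo1 exceeded Ccng2 in 6. Ccng2 exceeded Irs1 in 11 of 12. By group mean Ccng2 was the 6th highest of the 10 in LP-NT, the 8th in SP-NT and the 9th in SP-HT.

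**Figure D4:**
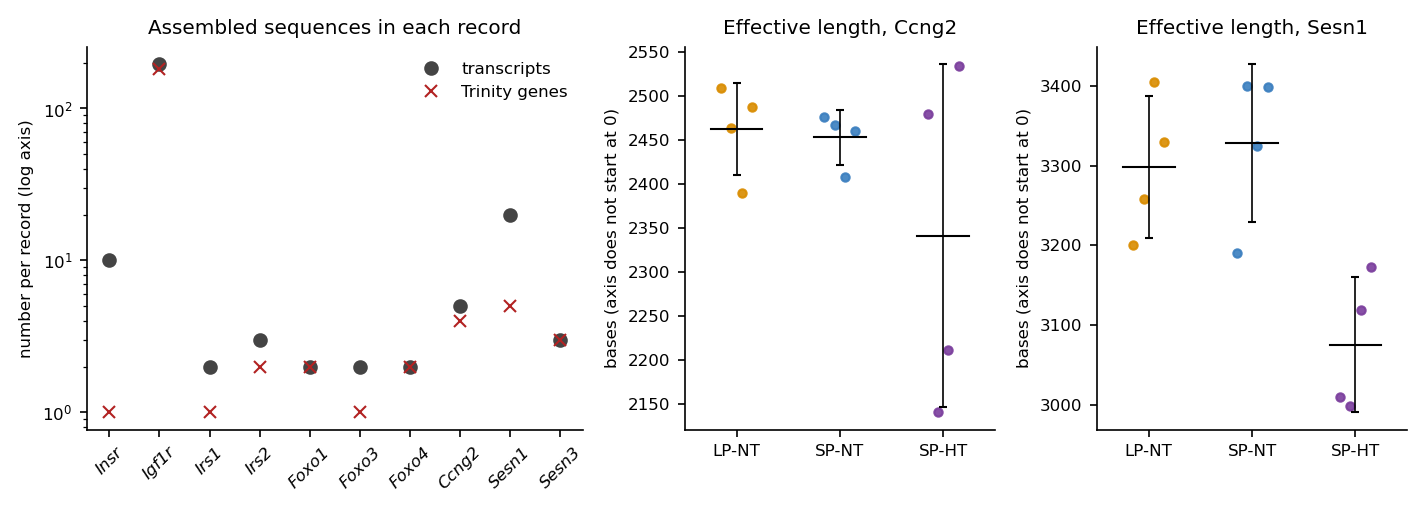
Left, the number of assembled transcripts (circles) and Trinity genes (crosses) joined in each record, on a log axis. Middle and right, the effective length in bases of Ccng2 and Sesn1 in each hamster, with mean and SD (n = 4 a group), on axes that do not start at 0. Igf1r joins 195 transcripts where the other genes join 2 to 20. For Sesn1 the SP-HT lengths of 2999 to 3173 bases lie below those of the other groups, while for Ccng2 the SP-HT lengths spread from 2140 to 2535 bases.

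The high level of Igf1r goes with the make-up of its record. A record holds every assembled transcript whose best mouse protein match was that GeneID. The Igf1r record joined 195 transcripts from 181 Trinity genes, a Trinity gene being a group of transcripts that the assembler took for isoforms of a gene. As many Trinity genes were found in 0.116% of the 17191 records. Its mean effective length was 535 bases. It shared Trinity genes with 12 other records, and read clusters of the assembler with 211. The medians over all records were 6 transcripts, 2 Trinity genes and 2446 bases. How much of its 381 TPM, or of its counts, comes from the Igf1r transcript itself was not tested. The other 9 genes held 2 to 20 transcripts from 1 to 5 Trinity genes, and shared no Trinity gene with another record. Foxo1 and Foxo3 shared a read cluster of the assembler, together with other records.

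The genes most like Ccng2 were sought by Pearson's r of log2 CPM over the 12 hamsters among 13939 genes with a mean of at least 1 CPM. The points share group, library and depth, so the values are a description. GeneIDs 319583 and 240396 were highest, at r = 0.987 and 0.980, and GeneIDs 11443 and 56743 were lowest, at -0.965 each. Spearman's correlation gave 0.867, 0.888, -0.965 and -0.755 for these IDs in turn, and placed other genes at the top. GeneID 56743 was near the filter in LP-NT and SP-NT, with means of 0.859 and 0.985 CPM. The deposited files do not pair these IDs with names. GeneID 240396 had 43.7 ± 6.64, 41.0 ± 2.28 and 28.7 ± 1.20 CPM in LP-NT, SP-NT and SP-HT (SD, n = 4 each). It was picked for likeness to Ccng2 in these hamsters, so the shared order of groups is no separate result. Among the 9 other genes of the pathway, Sesn1 was nearest to Ccng2 with r = 0.740, which ranked 769th. The others lay between -0.54 for Insr and 0.34 for Irs1.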

How the data were processed

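The authors sequenced hypothalamic mRNA, trimmed reads with Trim Galore 0.6.6, pooled all samples in a de novo Trinity assembly, assigned transcripts to mouse GeneIDs by best protein match (GRCm39), mapped each sample with Bowtie 1.3.0 and quantified it with RSEM 1.3.1. The deposited files hold, per GeneID and hamster, expected counts (not normalized), TPM (scaled for effective length and library) and effective length. The deposited FPKM were not used.

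Here expected counts were rounded, genes under 10 counts in total across a comparison's 8 hamsters were dropped, and each comparison was fitted with edgeR 4.0.16 (quasi-likelihood test, TMM, no covariates, R 4.3.3), with Benjamini-Hochberg adjustment over all genes. Intervals are 95%. Printed CPM use TMM factors over the 12 samples. Likeness used a prior count of 2. The code was tested on simulated data. Alternatives included DESeq2 1.42.0, limma 3.58.1, other scalings and filters, length offsets, sex and leaving out each hamster. With 4 hamsters a group the p-values set a group difference against the variation between these animals, moderated over all genes.

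The members and lists were chosen with earlier results of these data known. All 10 members are named, and the 2 genes most and the 2 least like Ccng2. The files carry GeneIDs without names, so the lists of other pathway genes and of cell type markers were not used here, and promoter and protein sequences were not analysed here.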

Additional observations from a re-analysis of the deposited data

Results flagged for a closer look

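Among 60 groups of 4 values (CPM and effective length of the 10 genes in each group), 2 held a value far from the other 3 by Dixon's criterion, which chance alone gives in about 1 in 20 groups. Ccng2 in LP-NT replicate 01 stood at 29.9 CPM, with the other 3 LP-NT hamsters between 19.9 and 20.9 CPM. The effective length of Foxo4 in SP-HT replicate 33 was 3162 bases, with the other 3 torpid hamsters between 3133 and 3135 bases. All 4 SP-HT lengths of Foxo4 lay above the LP-NT range of 3030 to 3073 bases, a position that 2.19% of all genes tested held, and overlapped SP-NT at 3056 to 3150 bases.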

How the results depend on the processing

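The Ccng2 values and the counts of members called kept direction and side of the threshold in all alternatives run. The torpor log2(FC) of Ccng2 ranged from -1.06 to -0.94 over settings (adjusted p at most 0.0176) and from -1.11 to -0.96 when each hamster was left out (adjusted p 0.00195 to 0.0133). No other member was called under any setting run. Over all genes, edgeR called 6, 389 and 221 (photoperiod, torpor, SP-HT against LP-NT) and DESeq2 33, 1017 and 706. Values near 0, none of them called, changed sign as follows, and the cause was not tested. With total counts only, Foxo3 was 0.0055 between photoperiods, Foxo4, Insr, Irs2 and Sesn3 were -0.022, -0.016, -0.023 and -0.023 in the torpor comparison, and Foxo4 was -0.040 against LP-NT. With limma voom, Igf1r and Sesn3 were -0.076 and -0.052 between photoperiods and Sesn3 was -0.0056 against LP-NT. With thinned counts Igf1r was -0.0025 between photoperiods. With the labelled sex as a covariate, Foxo4 and Igf1r were -0.0059 and 0.0018 in torpor and -0.032 and 0.050 against LP-NT. With length offsets (edgeR) or factors (DESeq2), Irs2 was -0.00089 (edgeR) and Igf1r 0.0068 (DESeq2) in torpor, and against LP-NT Foxo4 was -0.048 and -0.043 and Igf1r 0.13 and 0.14. Igf1r against LP-NT was 0.0069 with median-of-ratios factors, 0.0078 without a count filter, 0.0070 with filterByExpr and 0.0069 with DESeq2. Leaving out each hamster, the ranges that crossed 0 between photoperiods were -0.096 to 0.019 for Foxo1, -0.086 to 0.035 for Foxo3, -0.080 to 0.022 for Foxo4, -0.021 to 0.20 for Insr, -0.11 to 0.079 for Igf1r, -0.020 to 0.089 for Irs1, -0.063 to 0.0014 for Sesn1 and -0.11 to 0.14 for Sesn3. In torpor they were -0.064 to 0.13 for Foxo4, -0.017 to 0.077 for Insr, -0.085 to 0.038 for Igf1r and -0.045 to 0.084 for Sesn3. Against LP-NT they were -0.089 to 0.11 for Foxo4, -0.11 to 0.063 for Igf1r and -0.082 to 0.17 for Sesn3. Of the 5 genes most like Ccng2, 0 were shared with Spearman's correlation and 3 with the 8 short photoperiod samples, a choice made after seeing the data. No paired analysis was possible because each sample came from a separate hamster and the labels pair none across groups. The counts of other pathway genes called were not run.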
